A study of Mus musculus with 24 samples.

Results

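Plasminogen activation and coagulation were followed through 10 genes, Plau, Plat, Plaur, F3, F10, F13a1, Tfpi, Tfpi2, Thbd and Procr, taken by gene symbol from a table of 18368 genes. All 10 were in the table, and all 10 passed the filter on low values that left 14423 genes for the wound comparisons. The study asked how skin from 3 body sites differs at rest and in repair. The mice, of the CD1 stock and bred in house, were 7 weeks old and in the resting phase of the hair cycle when they received full-thickness excisional wounds of 2 mm diameter at a single site. Skin of the abdomen, the back or the cheek was wounded, with 4 mice a site and 12 mice in all, and no gene was altered in any group. At day 3 the wound and adjacent unwounded skin of the same mouse were taken by punch biopsy, which gave 24 libraries in 6 groups of 4. Cheeks carried 1 wound and abdomens and backs carried 2, so wound number and the cheek site cannot be told apart. The unwounded skin lay beside a wound of the same mouse, and skin of mice without a wound was not analysed here.

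Values are FPKM (fragments counted per transcript length and per mapped fragment), a level that is comparable between genes of unequal length and that the authors deposited without further scaling between libraries. They summed to between 490830 and 608888 per library, with 15781 to 16577 genes above 0. The depth behind a value is unknown, as the table gives no counts. Differences are given on the scale of log2(FPKM + 0.5), which understates the change of genes at low levels, with a standard error (SE) from limma, and all adjusted p-values come from limma fits across all tested genes.

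Blood that leaves a damaged vessel meets tissue factor, the product of F3, which binds factor VII and activates factor X, and the resulting thrombin turns fibrinogen into a fibrin clot that factor XIII cross-links. Tissue factor pathway inhibitor, thrombomodulin and the endothelial protein C receptor restrain that cascade. Fibrin is removed by plasmin, which the urokinase-type and tissue-type activators cut from plasminogen, and in skin wounds this also clears a path for migrating keratinocytes and leukocytes.

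At day 3, 1 of the 10 genes passed the limma threshold of adjusted p below 0.001 in abdomen (Plaur), against 4.96% of all 14423 tested genes. In back 5 of 10 passed (F10, Plat, Plaur, Tfpi and Tfpi2), against 14.4% of tested genes, and in cheek 6 of 10 passed (the same 5 and Plau), against 8.69% of tested genes. Every one of these calls was a higher level in the wound, and 3.92%, 10% and 6.5% of tested genes passed as higher at abdomen, back and cheek. The median log2 difference of the 10 was 0.37 (abdomen), 0.77 (back) and 0.80 (cheek), beside -0.01, 0.07 and 0.01 over all tested genes. All 4 mice had a higher level in the wound for 6 genes at the abdomen, 7 at the back and 7 at the cheek, against 23.7%, 33.9% and 25% of tested genes. It was lower in all 4 mice for 2 genes in abdomen (F3 and F13a1), against 25% of tested genes, and for none in back or cheek. Wound and unwounded libraries had no overlap for 5 (abdomen), 7 (back) and 6 (cheek) of the 10. Only F13a1 at the abdomen was lower in the wound among these. Such separation was common, with the wound higher for 13.4%, 25% and 16.7% of tested genes and lower for 11%, 15.4% and 15%, by site in that order. The count of calls moved with the fit: leaving out abdomen mouse 2 or cheek mouse 2 gave 2 calls in abdomen, leaving out back mouse 1, 2 or 4 gave 2, 2 and 3 in back, and leaving out cheek mouse 1, 3 or 4 gave 3 in cheek. In separate fits of the 8 libraries of a site, with the mouse as a block, abdomen had 0 calls and cheek 2.

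**Figure D1:**
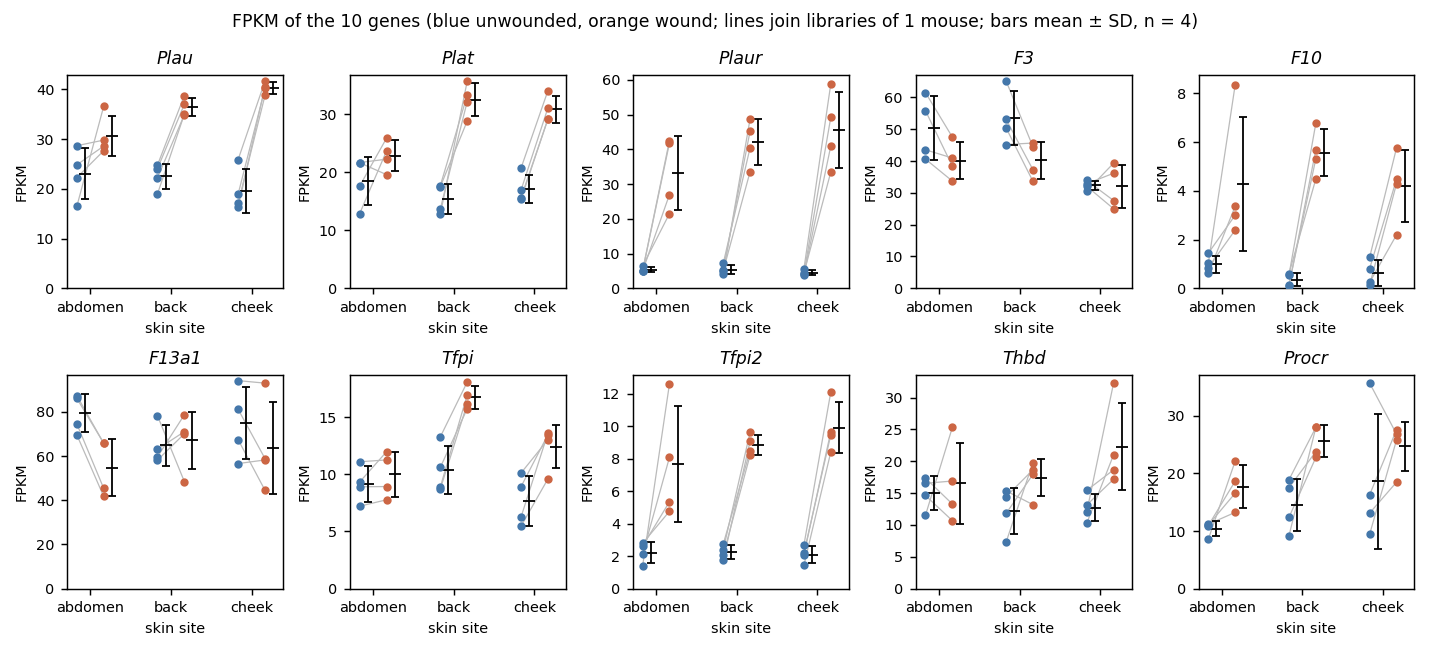
Each panel plots the FPKM of 1 gene (vertical axis) in unwounded (blue) and wound (orange) libraries of abdomen, back and cheek, with lines joining the 2 libraries of a mouse and black bars for mean ± SD (n = 4). Plaur, F10 and Tfpi2 were higher in every wound library than in every unwounded library of the site, while F3 and F13a1 spread over overlapping ranges at most sites.

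Plaur, the receptor that holds urokinase at the cell surface, had the highest wound level relative to its resting level of the 10 genes at abdomen and cheek. In abdomen, Plaur was at 4.99, 6.33, 4.96 and 4.90 FPKM in the unwounded libraries of mice 1 to 4 and at 42.5, 21.5, 41.8 and 27.0 FPKM in their wounds. In back, Plaur was at 4.12, 5.02, 7.13 and 5.30 FPKM in unwounded skin and 48.8, 33.6, 40.5 and 45.3 FPKM in wounds. In cheek, Plaur was at 3.88, 4.18, 5.46 and 4.30 FPKM in unwounded skin and 40.9, 49.2, 58.8 and 33.4 FPKM in wounds. The lowest wound library of any site stood far above the highest unwounded one, and the 3 sites overlapped within each state. The log2 difference was 2.49 in abdomen (SE 0.20, limma adjusted p = 8.35e-06), 2.86 in back (SE 0.20, adjusted p = 1.09e-06) and 3.20 in cheek (SE 0.20, adjusted p = 6.39e-07). The call in abdomen was lost when that site was fitted on its own 8 libraries (limma adjusted p = 0.00333). On mean FPKM, Plaur moved from the middle of the expressed genes, percentile 50.9 in abdomen, 52.7 in back and 45.8 in cheek, to percentile 85.6, 88.7 and 89.6 in wounds.

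Plaur lies on chromosome 7 at chr7:24460937-24475970 (GRCm38). The window from 250 bases before to 50 after a RefSeq start (GRCm38.p6, chr7:24462233-24462532, plus strand) lies inside that span and not at its outer end. It is shown because it holds the letters TGACTCA, a form of the AP-1 motif TGANTCA, in capitals, at -69 from that start.
Plaur: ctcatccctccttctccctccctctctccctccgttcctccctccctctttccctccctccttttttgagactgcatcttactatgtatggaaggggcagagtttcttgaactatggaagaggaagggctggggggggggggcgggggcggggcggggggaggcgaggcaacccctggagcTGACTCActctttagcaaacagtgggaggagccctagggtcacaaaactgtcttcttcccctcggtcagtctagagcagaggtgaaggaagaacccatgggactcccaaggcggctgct
The AP-1 letters stood in 4 of 11 windows available for 7 of the 10 genes (F3, Plaur, Procr and 1 of 3 for Tfpi2) and in 7.81% of all 32851 windows of this length. Both strands were searched, and a match is a description of these letters and not of a bound site. Windows of Plau, Plat and Thbd were not used here.

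Plau and Plat encode the urokinase-type and the tissue-type plasminogen activators, and both lay between 12.8 and 41.7 FPKM in the 24 libraries. In abdomen, Plau was at 16.4, 28.7, 24.8 and 22.2 FPKM in unwounded skin and 36.6, 29.8, 28.6 and 27.7 FPKM in wounds. In back, Plau was at 19.0, 22.2, 24.8 and 24.1 FPKM in unwounded skin and 35.0, 34.9, 38.7 and 37.0 FPKM in wounds. In cheek, Plau was at 25.9, 18.9, 17.1 and 16.3 FPKM in unwounded skin and 41.7, 40.2, 38.8 and 40.6 FPKM in wounds. Wound and unwounded libraries did not overlap in back and cheek and did so in abdomen, where mouse 2 differed by only 0.05 on the log2 scale. The cheek difference of 1.05 (SE 0.15, limma adjusted p = 0.000179) passed the threshold, while those of 0.69 in back (SE 0.15, adjusted p = 0.00224) and 0.42 in abdomen (SE 0.15, adjusted p = 0.0410) did not. In cheek the call on Plau was lost without cheek mouse 2, 3 or 4 (limma adjusted p = 0.00156, 0.00163 and 0.00120) and on the site's own 8 libraries (0.00222). In back Plau passed without abdomen mouse 1 (limma adjusted p = 0.000124), without the mouse term (0.000649) and on the site's own libraries (0.000233). Plau lies at chr14:20836662-20843388 and Plat at chr8:22757722-22782848 (GRCm38).

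Plat showed its larger differences in back and cheek. In abdomen, Plat was at 12.9, 21.7, 21.6 and 17.6 FPKM in unwounded skin and 23.7, 22.2, 19.6 and 25.9 FPKM in wounds. In back, Plat was at 12.8, 13.7, 17.7 and 17.5 FPKM in unwounded skin and 35.7, 32.2, 33.3 and 28.8 FPKM in wounds. In cheek, Plat was at 20.7, 15.6, 15.3 and 16.9 FPKM in unwounded skin and 34.0, 29.1, 29.1 and 31.1 FPKM in wounds. Each back and cheek wound stood above all unwounded libraries, and in abdomen mouse 3 was lower in its wound. Plat rose by 1.06 in back (SE 0.15, limma adjusted p = 0.000123) and by 0.84 in cheek (SE 0.15, adjusted p = 0.000957). The abdomen difference was 0.32 (SE 0.15, limma adjusted p = 0.110). The cheek call stood at the edge of the threshold and was lost under 5 of 9 other settings (limma adjusted p between 0.00128 and 0.00182) and without abdomen mouse 2 or 4, back mouse 2, 3 or 4, or any cheek mouse (0.00107 to 0.00643). The back call on Plat was lost without back mouse 1 or 2 (limma adjusted p = 0.00114 and 0.00138).

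**Figure D2:**
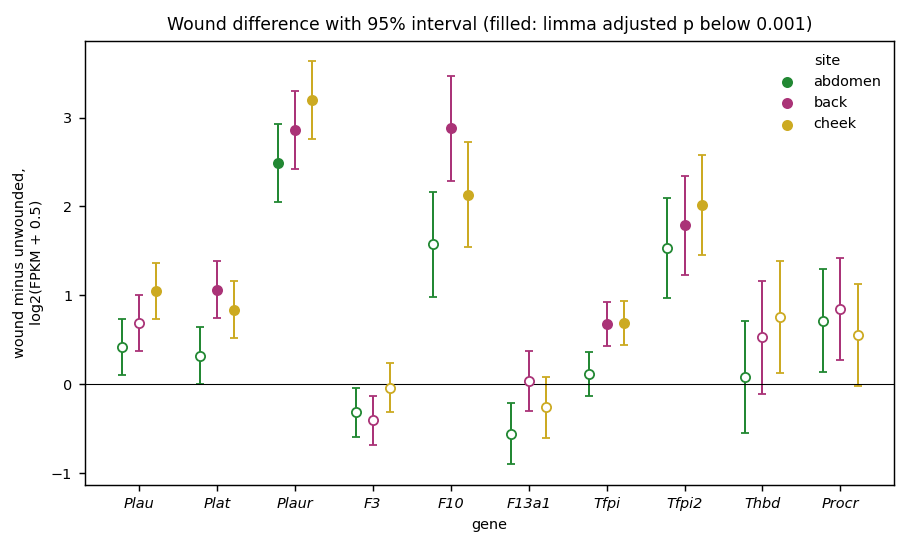
Wound minus unwounded difference of the 10 genes on the log2(FPKM + 0.5) scale (vertical axis) at abdomen (green), back (purple) and cheek (yellow), with 95% intervals from limma over 24 libraries. Filled points have an adjusted p below 0.001, and Plaur is filled at 3 sites, with 2.49, 2.86 and 3.20.

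F3 encodes tissue factor, the cell-surface trigger of coagulation, and was the only one of the 10 genes that passed between unwounded sites. In abdomen, F3 was at 55.9, 43.6, 61.6 and 40.6 FPKM in unwounded skin and 38.4, 41.0, 47.6 and 33.7 FPKM in wounds. In back, F3 was at 65.2, 53.1, 45.2 and 50.4 FPKM in unwounded skin and 44.5, 37.3, 45.7 and 33.6 FPKM in wounds. In cheek, F3 was at 32.9, 33.9, 32.1 and 30.5 FPKM in unwounded skin and 36.2, 27.6, 25.0 and 39.4 FPKM in wounds. Wound and unwounded libraries overlapped at each site, and in cheek mice 1 and 4 were higher in the wound and mice 2 and 3 lower. No wound difference passed the limma threshold, with -0.31 in abdomen (SE 0.13, adjusted p = 0.0760), -0.40 in back (SE 0.13, adjusted p = 0.0208) and -0.04 in cheek (SE 0.13, adjusted p = 0.846), the last of which turned positive without cheek mouse 2 or 3 (0.05 and 0.07).

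Between unwounded sites, F3 in cheek was lower than in abdomen by a log2 difference of -0.61 (SE 0.14, limma adjusted p = 0.0419, threshold 0.05) and lower than in back by -0.71 (SE 0.14, adjusted p = 0.0327). These were 1 of the 10 genes in each comparison, where 2.57% and 1.05% of 13956 tested genes passed, 1.23% and 0.494% as lower in cheek. All 4 cheek libraries of unwounded skin lay below all 8 of abdomen and back, and the share of all genes with that order was not counted. The median of all genes was shifted by 0.14 between cheek and back and by 0.03 between cheek and abdomen, and under median-ratio scaling the F3 differences were -0.86 from back and -0.64 from abdomen. Both calls rest on few libraries. The first was lost without abdomen mouse 1, 2 or 3, back mouse 2 or 4, or any cheek mouse (limma adjusted p = 0.0560 to 0.131). The second was lost without back mouse 1, 2 or 4 or any cheek mouse (limma adjusted p = 0.0600 to 0.0991). The summed level of 6 skeletal muscle genes was 440 to 13397 FPKM in unwounded abdomen, 11463 to 18470 FPKM in back and 9703 to 19298 FPKM in cheek, with overlapping ranges, and 0 of the 6 passed in either comparison. Of the other marker genes, Lor, a cornified envelope gene and 1 of 6 for skin keratinocytes, was lower in cheek than in abdomen (-0.87, limma adjusted p = 0.0336). So was Retn, 1 of 6 for adipocytes (-1.93, limma adjusted p = 0.0204), while Cidec of that list had group means of 78.3 FPKM in cheek and 76.0 FPKM in abdomen. Alb, 1 of 2 tested for hepatocytes, was lower in cheek than in back (-1.40, limma adjusted p = 0.0327), at low group means of 0.40 and 1.97 FPKM. The part of these genes' cells in the F3 difference was not tested.

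Cheek wounds were at 32.0 ± 6.84 FPKM of F3 (SD, n = 4), against 40.2 ± 5.77 in abdomen and 40.2 ± 5.79 in back wounds, and the libraries overlapped. The wound-state differences of cheek were -0.34 from abdomen (SE 0.16) and -0.34 from back, neither past the limma threshold (adjusted p = 0.162 and 0.192). F3 lies at chr3:121723537-121735052 (GRCm38), and its start window (chr3:121723287-121723586, plus strand) is shown because it was the only window of the 11 with a pair of AP-1 matches, TGAATCA at -146 and TGAGTCA at -135, in capitals.
F3: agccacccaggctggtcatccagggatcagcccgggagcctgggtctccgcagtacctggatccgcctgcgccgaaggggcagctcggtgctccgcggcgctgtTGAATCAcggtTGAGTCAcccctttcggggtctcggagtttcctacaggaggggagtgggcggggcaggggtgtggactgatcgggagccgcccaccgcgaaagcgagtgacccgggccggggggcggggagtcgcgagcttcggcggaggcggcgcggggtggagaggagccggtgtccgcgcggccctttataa

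F10, coagulation factor X, is made mainly by the liver and can also be made by macrophages. In abdomen, F10 was at 0.85, 1.44, 0.61 and 1.02 FPKM in unwounded skin and 2.39, 3.00, 3.37 and 8.36 FPKM in wounds. In back, F10 was at 0.54, 0.15, 0.60 and 0.10 FPKM in unwounded skin and 6.78, 5.32, 4.49 and 5.69 FPKM in wounds. In cheek, F10 was at 1.27, 0.13, 0.81 and 0.24 FPKM in unwounded skin and 5.76, 4.29, 4.47 and 2.19 FPKM in wounds. The states did not overlap at any site, abdomen mouse 4 was far above the other abdomen wounds, and the level stayed below 10 FPKM throughout. F10 rose in back by 2.88 (SE 0.27, limma adjusted p = 7.49e-06) and in cheek by 2.13 (SE 0.27, adjusted p = 0.000101). The abdomen difference of 1.57 (SE 0.27, limma adjusted p = 0.00131) missed the threshold, which it passed without cheek mouse 2 (0.000844). The cheek call on F10 was lost on the site's own 8 libraries (limma adjusted p = 0.00183). The sizes depend on the pseudocount, since unwounded values lie near it, and ranged over other settings from 1.31 to 1.90 in abdomen, 2.29 to 3.86 in back and 1.69 to 2.86 in cheek.

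Whole-tissue RNA does not separate fewer cells of a type from less RNA per cell. Genes of macrophages and monocytes (8 listed, all tested) were higher in wounds for 3 in abdomen, 6 in back and 6 in cheek by limma at 0.001 (3.92%, 10% and 6.5% of all genes tested), and 0 were lower. Their summed level was 710 to 926 FPKM in unwounded and 1380 to 2466 FPKM in wounded abdomen, 530 to 1054 and 2112 to 2596 FPKM in back, and 480 to 997 and 1389 to 2495 FPKM in cheek. Neutrophil genes (8 listed) were higher for 6, 7 and 7, from sums of 16.6 to 47.8 FPKM to 367 to 2414 FPKM in abdomen, 15.2 to 27.7 to 1061 to 1565 FPKM in back and 15.4 to 17.1 to 580 to 1415 FPKM in cheek, with Ly6g, a defining marker, listed at 0 in all unwounded abdomen and back libraries. Of hepatocyte genes (6 listed, 3 tested), 0 passed at any site. Their sum was nearly all Cyp2e1, with group means of 119 FPKM in unwounded and 43.6 FPKM in wounded abdomen, 222 and 51.3 FPKM in back and 153 and 55.1 FPKM in cheek, where the sums of the states overlapped. Apoa1 and Alb were low throughout. Apoa1 had group means of 0.08 and 0.22 FPKM in abdomen, 0.085 and 0.445 FPKM in back and 0.07 and 0.46 FPKM in cheek. Alb had group means of 1.42 and 0.49 FPKM in abdomen and 1.97 and 0.97 FPKM in back. In cheek the Alb means were 0.40 and 1.02 FPKM, with medians of 0.41 and 0.49 FPKM and a highest wound library of 2.70 FPKM. The tested hepatocyte genes had a median log2 difference of -0.93 (abdomen), -0.70 (back) and 0.46 (cheek). Wound-edge keratinocyte genes (4 listed) passed as higher for 3, 4 and 3, Krt16, Krt6a and Krt6b at every site. The part of these cells in the levels of F10, Plaur and the other genes was not tested.

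F7, coagulation factor VII, the partner of tissue factor, lies beside F10 on chromosome 8, at chr8:13025506-13035809 against chr8:13037308-13056676 (GRCm38), with 1498 bases between them. In abdomen, F7 was at 0.36, 1.12, 0.68 and 0.52 FPKM in unwounded skin and 1.92, 3.03, 3.22 and 5.27 FPKM in wounds. In back, F7 was at 0.30, 0.10, 0.45 and 0.07 FPKM in unwounded skin and 3.30, 4.00, 3.68 and 4.79 FPKM in wounds. In cheek, F7 was at 0.53, 0.03, 0.96 and 0.39 FPKM in unwounded skin and 3.96, 2.53, 3.92 and 2.22 FPKM in wounds. Abdomen mouse 4 held the highest wound value of both genes. F7 rose by 1.69 in abdomen (SE 0.23, limma adjusted p = 0.000255), by 2.63 in back (adjusted p = 3.90e-06) and by 1.96 in cheek (adjusted p = 5.32e-05). The abdomen call on F7 was lost without abdomen mouse 1, 3 or 4 (limma adjusted p = 0.00142, 0.00197 and 0.00177), with a pseudocount of 0.1 (0.00234) and on the site's own libraries (0.00557), and the cheek call on the site's own libraries (0.00164).

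F13a1, the catalytic chain of factor XIII that cross-links fibrin, lay between 41.7 and 94.2 FPKM in the 24 libraries, and its states overlapped in back and cheek. In abdomen, F13a1 was at 69.6, 86.1, 74.6 and 87.4 FPKM in unwounded skin and 41.7, 65.9, 45.4 and 65.8 FPKM in wounds. In back, F13a1 was at 58.1, 63.1, 78.3 and 59.7 FPKM in unwounded skin and 70.1, 71.0, 48.5 and 78.7 FPKM in wounds. In cheek, F13a1 was at 94.2, 81.2, 67.4 and 56.6 FPKM in unwounded skin and 93.0, 58.9, 44.5 and 58.2 FPKM in wounds. In abdomen the states stood apart, with every wound below every unwounded library, and back mouse 3 was the only back mouse that was lower in its wound. None of the differences passed the limma threshold, with -0.56 in abdomen (SE 0.16, adjusted p = 0.0173), 0.04 in back (SE 0.16, adjusted p = 0.866) and -0.26 in cheek (SE 0.16, adjusted p = 0.220). The sign in back was not stable, at -0.03 with median-ratio scaling, -0.10 with quantile normalization and -0.04, -0.01 and -0.08 without back mouse 1, 2 or 4. Platelet genes (6 listed, 3 tested), another place where factor XIII is known, passed as higher for 0 in abdomen, 1 in back (Pf4) and 2 in cheek (Pf4 and Ppbp), against 3.92%, 10% and 6.5% of all genes tested. Their summed level, nearly all of it Pf4, was 51.5 to 94.5 FPKM in unwounded and 115 to 147 FPKM in wounded abdomen, 67.3 to 95.2 and 176 to 273 FPKM in back, and 49.1 to 109 and 136 to 203 FPKM in cheek. Itga2b had group means of 1.88 and 1.45 FPKM in back and Gp1ba of 0.41 and 0.26 FPKM in back and 0.345 and 0.223 FPKM in cheek. The defining marker Gp6 was listed at 0 in all abdomen libraries. Their part in the F13a1 levels was not tested. F13a1 lies at chr13:36867178-37050244 (GRCm38).

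Tfpi, tissue factor pathway inhibitor, blocks the tissue factor complex and factor Xa. In abdomen, Tfpi was at 9.33, 7.21, 11.1 and 8.91 FPKM in unwounded skin and 12.0, 7.77, 11.3 and 8.93 FPKM in wounds. In back, Tfpi was at 10.6, 13.3, 8.89 and 8.73 FPKM in unwounded skin and 15.8, 18.1, 17.0 and 16.2 FPKM in wounds. In cheek, Tfpi was at 5.45, 10.1, 8.91 and 6.25 FPKM in unwounded skin and 9.59, 13.03, 13.5 and 13.6 FPKM in wounds. The back libraries stood apart, the cheek libraries overlapped at mouse 1, whose wound was the lowest, and the abdomen ranges were nearly the same in both states. Tfpi rose by 0.68 in back (SE 0.11, limma adjusted p = 0.000464) and by 0.69 in cheek (SE 0.11, adjusted p = 0.000646), while the abdomen difference was 0.12 (95% interval -0.13 to 0.36, adjusted p = 0.456). Both calls stood near the threshold. In back it was lost without any 1 of the back mice (limma adjusted p = 0.00114 to 0.00433), with median-ratio scaling (0.00223), with quantile normalization (0.00380) and without the mouse term (0.00432). In cheek it was lost under 6 of 9 other settings (limma adjusted p = 0.00103 to 0.0121) and without abdomen mouse 2, 3 or 4, back mouse 1 or 4, or cheek mouse 1, 3 or 4 (0.00101 to 0.00428). Tfpi lies at chr2:84432855-84476775 (GRCm38).

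Tfpi2, a second Kunitz-type inhibitor that acts on plasmin and sits in the matrix, started at lower levels. In abdomen, Tfpi2 was at 1.36, 2.78, 2.60 and 2.10 FPKM in unwounded skin and 12.6, 4.75, 5.34 and 8.07 FPKM in wounds. In back, Tfpi2 was at 2.39, 1.74, 2.73 and 2.05 FPKM in unwounded skin and 9.62, 9.07, 8.47 and 8.21 FPKM in wounds. In cheek, Tfpi2 was at 1.42, 2.17, 2.08 and 2.66 FPKM in unwounded skin and 8.39, 9.45, 9.64 and 12.1 FPKM in wounds. Every wound stood above every unwounded library, and abdomen wounds spread most, from 4.75 to 12.6 FPKM. Tfpi2 rose by 1.79 in back (SE 0.26, limma adjusted p = 0.000187) and by 2.02 in cheek (SE 0.26, adjusted p = 0.000112), and the abdomen difference of 1.53 (SE 0.26, adjusted p = 0.00118) missed the threshold. The abdomen value passed without abdomen mouse 2 (limma adjusted p = 0.000527) and without the mouse term (5.78e-05). The back call on Tfpi2 was lost without back mouse 1, 2 or 4 (limma adjusted p = 0.00140, 0.00195 and 0.00153) and the cheek call without cheek mouse 1 (0.00101). Tfpi2 lies at chr6:3962589-3988978 (GRCm38). Of its 3 start windows, 1 (chr6:3968326-3968625, minus strand), well inside that span, is shown for its match TGAATCA, in capitals, at -77.
Tfpi2: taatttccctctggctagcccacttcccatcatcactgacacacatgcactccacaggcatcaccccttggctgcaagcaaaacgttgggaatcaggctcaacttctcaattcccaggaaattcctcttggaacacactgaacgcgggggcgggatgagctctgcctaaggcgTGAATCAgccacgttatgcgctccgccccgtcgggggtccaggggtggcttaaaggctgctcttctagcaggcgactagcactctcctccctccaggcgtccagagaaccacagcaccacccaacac

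Thbd and Procr carry the anticoagulant protein C pathway on endothelium, as thrombomodulin, which binds thrombin, and as the receptor that presents protein C to it. In abdomen, Thbd was at 11.5, 16.5, 17.4 and 14.6 FPKM in unwounded skin and 25.3, 16.9, 13.3 and 10.7 FPKM in wounds. In back, Thbd was at 7.29, 11.8, 14.4 and 15.4 FPKM in unwounded skin and 19.8, 17.9, 18.7 and 13.2 FPKM in wounds. In cheek, Thbd was at 15.4, 13.1, 12.0 and 10.3 FPKM in unwounded skin and 18.7, 17.2, 32.3 and 21.0 FPKM in wounds. Abdomen mice moved in both directions, and the cheek states stood apart. None of its differences passed the limma threshold, with 0.08 in abdomen (SE 0.29, adjusted p = 0.852), 0.53 in back (SE 0.29, adjusted p = 0.156) and 0.76 in cheek (SE 0.29, adjusted p = 0.0596), and the abdomen value was -0.26 without abdomen mouse 1. Thbd lies at chr2:148404471-148408188 (GRCm38).

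Procr was higher in all 4 wounds of abdomen and back. In abdomen, Procr was at 8.56, 11.04, 10.95 and 11.2 FPKM in unwounded skin and 22.2, 16.6, 18.7 and 13.2 FPKM in wounds. In back, Procr was at 9.19, 12.4, 18.9 and 17.5 FPKM in unwounded skin and 28.0, 22.8, 28.0 and 23.8 FPKM in wounds. In cheek, Procr was at 16.3, 13.1, 9.44 and 35.7 FPKM in unwounded skin and 27.6, 18.5, 25.8 and 26.9 FPKM in wounds. The states stood apart in abdomen and back and overlapped in cheek, where the unwounded library of mouse 4 was the highest of all 24 and above its own wound. The differences were 0.72 in abdomen (SE 0.26, limma adjusted p = 0.0554), 0.85 in back (SE 0.26, adjusted p = 0.0207) and 0.56 in cheek (SE 0.26, adjusted p = 0.119), none past the threshold of 0.001. Leaving out each mouse in turn moved the cheek value between 0.27 and 0.88. Blood vessel genes (8 listed, all tested) passed as higher for 2 in abdomen, 5 in back and 3 in cheek, against 3.92%, 10% and 6.5% of all genes tested. Their sums were 112 to 130 FPKM in unwounded and 157 to 163 FPKM in wounded abdomen, 107 to 142 and 171 to 185 FPKM in back, and 100 to 158 and 157 to 183 FPKM in cheek. Cldn5 of that list went the other way, with group means of 16.7 and 14.4 FPKM in abdomen, 16.4 and 12.6 FPKM in back and 13.8 and 12.4 FPKM in cheek. The part of these genes' cells in the levels of Thbd and Procr was not tested. Procr lies at chr2:155751125-155755478 (GRCm38), and its start window (chr2:155750967-155751266, plus strand) is shown for its match TGACTCA, in capitals, at -154.
Procr: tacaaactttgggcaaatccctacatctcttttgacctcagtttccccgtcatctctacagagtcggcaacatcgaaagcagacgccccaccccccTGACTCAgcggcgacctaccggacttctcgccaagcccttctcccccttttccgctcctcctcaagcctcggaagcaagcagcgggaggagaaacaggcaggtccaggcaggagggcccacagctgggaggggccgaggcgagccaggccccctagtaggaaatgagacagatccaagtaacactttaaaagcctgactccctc

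The sites were compared within wounds as well. Back wounds were higher than abdomen wounds for 2 of the 10 genes, where 1.27% of 14023 tested genes passed 0.05 and 0.506% passed as higher in back. These were Plat, at 32.5 ± 2.85 against 22.8 ± 2.64 FPKM (SD, n = 4 each, log2 difference 0.50, limma adjusted p = 0.0346), and Tfpi, at 16.7 ± 1.02 against 9.99 ± 1.97 FPKM (0.74, adjusted p = 0.0356). Cheek wounds were higher than abdomen wounds for 2 of the 10, where 10.8% of tested genes passed, 7.52% as higher in cheek. Here Plau was at 40.3 ± 1.19 against 30.6 ± 4.04 FPKM (0.40, limma adjusted p = 0.0171) and Plat at 30.8 ± 2.31 against 22.8 ± 2.64 FPKM (0.43, adjusted p = 0.0199). Between cheek and back wounds 0 of 10 passed, against 2.5% of tested genes, and between unwounded back and abdomen 0 of 10 passed, against 2.67%. The wound libraries of the sites did not overlap for these 4 differences. Nor did they for Procr between back and abdomen or for Plau and Tfpi between cheek and back, which did not pass. The share of all genes without overlap between sites was not counted. Exact permutation of 4 against 4 libraries, two-sided, can go no lower than p = 0.0286 for a single gene. In a fit of all 24 libraries with the mouse as a random effect, none of the 4 passed (limma adjusted p = 0.114 and 0.0526 for back, 0.104 and 0.0833 for cheek). For Plat the back call was also lost without abdomen mouse 2 or 3 or back mouse 1, 2 or 3 (limma adjusted p = 0.0751 to 0.1002), and for Tfpi without abdomen mouse 2 or 3, any back mouse or cheek mouse 2 (0.0521 to 0.101).

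Whether the response itself differed between sites was asked with a limma F test over the 3 wound differences. None of the 10 genes passed (adjusted p between 0.236 and 0.869), and 3 of all 14423 tested genes did (0.0208%). Without adjustment for the number of genes, Tfpi, Plat, F10 and Plau were below 0.05 by limma, as were 1867 of all tested genes. A call in back or cheek and not in abdomen is therefore not shown to be a difference between the sites. Without abdomen mouse 1, whose Plau went from the lowest unwounded to the highest wound value of that site, Plau passed the F test (limma adjusted p = 0.0292).

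Ratios compared the levels of a pair of genes within the same library. F3 over Tfpi was lower in the wound in 4 of 4 mice at each site, with a mean log2 ratio of 2.40 in unwounded and 1.96 in wounded abdomen, 2.32 and 1.23 in back, and 2.04 and 1.32 in cheek. Tfpi2 over Tfpi was higher in 4 of 4 mice at each site, by 1.42 ± 0.85 in abdomen, 1.11 ± 0.46 in back and 1.33 ± 0.27 in cheek (mean ± SD of mice on the log2 scale). Plau over Plat was lower in 4 of 4 back wounds (-0.37 ± 0.24) and higher in 3 of 4 in abdomen (0.10 ± 0.26) and cheek (0.21 ± 0.19). Thbd over Procr was lower in 4 of 4 mice in abdomen (-0.64 ± 0.37) and back (-0.32 ± 0.22), and in 3 of 4 in cheek, where the mean of 0.20 ± 0.83 had the other sign and mouse 4 was the one with a higher ratio. Sign changes over 4 mice cannot give a two-sided exact p below 0.125, and of 36 exact tests on these ratios none was below 0.171 after Benjamini-Hochberg adjustment.

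Other genes of these pathways were taken from 4 lists of 40 genes, of which 39 were in the table and 23 passed the filter. Of the 23 tested, 1 passed as higher in abdomen (F7), 1 in back (F7) and 2 in cheek (F7 and Lrp1), and 0 were lower. Over all genes tested 4.96%, 14.4% and 8.69% were called in these comparisons, and the counts among the 23 stand near or below these shares. By list, the plasminogen partners had 0, 0 and 1 of 11 tested, the coagulation factors 1, 1 and 1 of 5, the anticoagulant partners 0 of 3 and the protease-activated receptors 0 of 4. The plasminogen receptor genes Anxa2 and S100a10 were the highest of these lists, at 836 and 380 FPKM in cheek wounds. Cheek had the lowest Anxa2 of the wound groups, with means of 972 FPKM in abdomen and 1044 FPKM in back wounds. Unwounded means of Anxa2 were 939 FPKM in abdomen, 725 FPKM in back and 654 FPKM in cheek. Of circulating proteins made mainly in the liver, Plg, the plasmin precursor, was between 0 and 0.04 FPKM in all 24 libraries and Fga, Fgb, F12 and Proc had group means of 0.03 FPKM or less, while the group means of Pros1 (protein S) were 35.8 to 56.2 FPKM and those of Vtn (vitronectin) 3.31 to 6.79 FPKM.

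Lrp1, the endocytic receptor that clears complexes of proteases and their inhibitors, was at 28.7, 28.5, 28.3 and 24.4 FPKM in unwounded cheek and 46.1, 40.03, 56.1 and 53.1 FPKM in cheek wounds, with no overlap. It rose there from 27.5 ± 2.07 to 48.8 ± 7.22 FPKM (0.81, SE 0.11, limma adjusted p = 0.000149), and this limma call on Lrp1 was lost without cheek mouse 3 (0.00151) and on the site's own libraries (0.00566). Lrp1 was also higher in the wound of every back and abdomen mouse, without passing the threshold. Its group means were 29.2 and 41.5 FPKM in back, with no overlap, and 30.6 and 38.8 FPKM in abdomen, with overlap. The limma F test did not show a difference of the Lrp1 response between sites (adjusted p = 0.333).

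Serpine2, which inhibits thrombin and urokinase, and Serpinb2, an inhibitor of urokinase, did not pass in the wound comparison of any site. Serpine2 was at 22.8 ± 2.92 FPKM in unwounded and 21.3 ± 0.49 FPKM in wounded abdomen, 38.6 ± 3.64 and 28.6 ± 4.09 FPKM in back, and 37.3 ± 9.06 and 31.3 ± 6.37 FPKM in cheek. Every back wound library of Serpine2 lay below every unwounded one, as for 15.4% of tested genes, and the states overlapped in abdomen and cheek. In unwounded back Serpine2 was higher than in unwounded abdomen (0.75, SE 0.17, limma adjusted p = 0.0337), while the median of all genes was lower there by a log2 difference of -0.12. Serpine2 was 1 of 19 tested partner genes there, against 2.67% of all tested genes. In unwounded cheek against abdomen, Vtn passed as higher and Anxa2 and Serpina5 as lower (19 tested, against 2.57%). In cheek against abdomen wounds, 3 of 22 passed as higher (Serpine2, Vtn and Pros1), against 7.52%. Vkorc1 was lower in cheek than in back wounds, 1 of 22, against 2.5% called. Serpinb2 was at 58.6 ± 12.1 FPKM in unwounded and 46.2 ± 17.0 FPKM in wounded abdomen, 57.4 ± 11.4 and 75.5 ± 20.2 FPKM in back, and 63.9 ± 18.7 and 69.1 ± 11.6 FPKM in cheek, with overlap at each site.

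**Figure D3:**
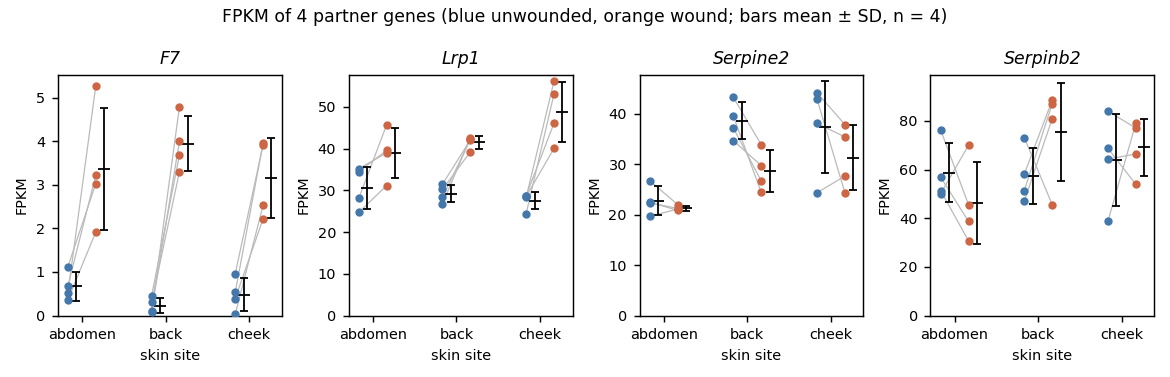
FPKM (vertical axes from 0) of 4 partner genes in unwounded (blue) and wound (orange) libraries by site, with lines joining the 2 libraries of a mouse and bars for mean ± SD (n = 4). F7 is between 1.92 and 5.27 FPKM in wounds and at 1.12 FPKM or lower in unwounded skin, whereas Serpinb2 overlaps at each site.

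Across the 24 libraries, on log2(FPKM + 0.5), the gene most like Plaur was Clec4e (Pearson r = 0.994), followed by Clec4d (0.993) and Cxcl3 (0.990). The gene most like F10 was its neighbour F7 (r = 0.970), that most like Tfpi2 was Adam12 (r = 0.973), that most like Plat was Capn2 (r = 0.964) and that most like Plau was Lhfpl2 (r = 0.932). For F13a1 it was Glud1 (r = 0.889), for Procr Slc7a8 (r = 0.861), for Thbd Duox1 (r = 0.857), for Tfpi Wisp2 (r = 0.827) and for F3 Fstl3 (r = 0.812). These coefficients share the wound difference over 24 libraries of 12 mice and describe likeness only. After the 6 group means were taken out, Clec4e was again the closest to Plaur (r = 0.857) and Glud1 to F13a1 (r = 0.905), Plat was the closest to Plau (r = 0.756), and Mmp12 (r = 0.883), Lyz1 (r = 0.877) and Lyz2 (r = 0.876) were the closest to F10.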

How the data were processed

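RNA of whole skin was sequenced in 24 libraries with paired reads of 100 bases. According to the study's methods and the labels, reads were filtered, mapped to GRCm38 (mm10) with HISAT2 and to transcripts with Bowtie2 (2.2.5), and quantified with RSEM (1.2.12). The authors deposited FPKM rounded to 2 decimals. A deposited table of the authors' DESeq2 fold changes and adjusted p-values was not used, and 0 per-sample columns were left out. Strand of counting was not given in the sources used here.

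log2(FPKM + 0.5) was fitted with limma (3.58.1, statmod 1.5.0, R 4.3.3), with trend and robust moderation, keeping genes that reached 0.5 FPKM in 4 or more of a fit's libraries. Wound differences were fitted over all 24 libraries with mouse as a term (adjusted p below 0.001), and sites were compared within the 12 unwounded or 12 wound libraries (below 0.05), with Benjamini-Hochberg adjustment over all tested genes. Both libraries of a mouse come from 1 animal. Their deviations from group means correlated with mean r = 0.322 in abdomen, 0.348 in back and 0.281 in cheek, against -0.108, -0.116 and -0.0958 for different mice. Depth relative to the other libraries, from steps in the lowest values of 124 genes, was 0.9 to 1.03, a rough estimate. Only genes whose lowest values agreed closely between libraries were kept, so the estimate could not show a large difference in depth. No pair of libraries was identical.

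The named genes were the 10 members, partner genes called at every site, Serpine2, Serpinb2 and Plg whatever they did, and the genes most like each member by Pearson r over the 24 libraries or over deviations from group means. A further partner gene is not reported here and is left out of the counts. Lrp1, Anxa2, S100a10, Serpina5, Vkorc1, the other circulating proteins and the single markers were chosen after their values were seen. The members, lists and motifs were chosen with earlier results of these data known. Besides AP-1, the GC box (GGGCGG) was in 5 of the 11 start windows and 35.7% of all windows, the TATA box (TATAAA) in 2 and 13.6%, the E-box (CACGTG) in 1 and 7.15% and an ETS motif (CCGGAAGT) in 0 and 3.89%, on both strands. In wounds the fibroblast, skin keratinocyte, mast cell, skeletal muscle and adipocyte lists had 0, 2, 0, 0 and 0 genes higher in abdomen, with 0 lower, the same counts higher in back and cheek, and lower only Col1a2, Cidec, Plin1 and Retn, in back. Each list held 6 genes, and 3.92%, 10% and 6.5% of tested genes passed as higher by site and 1.04%, 4.37% and 2.19% as lower. Skeletal muscle sums were 11463 to 18470 FPKM in unwounded and 2580 to 3773 FPKM in wounded back. Median skeletal muscle, adipocyte and fibroblast sums were lower in wounds at each site. The states overlapped for skeletal muscle in abdomen and for adipocytes and fibroblasts in cheek. Skin keratinocyte sums were higher in wounds, and mast cell sums overlapped. Promoter windows and gene positions are from RefSeq (GRCm38.p6).

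On simulated data, of 200 genes changed by a log2 difference of 1 in back wounds the fit called 143 (71.5%), with 0 others among 14388 genes, and the F test called 160 (80%), with 10 others. The changed genes were drawn from those above a low level in most libraries, and no other wound change was simulated. These shares therefore do not cover low genes such as F10 and F7, or smaller differences. Other pseudocounts, filters, scalings and model terms, and each mouse left out in turn, were tried.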

Additional observations from a re-analysis of the deposited data

Results flagged for a closer look

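Among 60 groups of 4 libraries (10 genes in 6 groups), 4 held a library farther from the other 3 than Dixon's 95% criterion allows, and chance alone gives about 1 in 20. Plaur was at 6.33 FPKM in unwounded abdomen of mouse 2, against 4.90 to 4.99 FPKM in the other 3. F10 was at 8.36 FPKM in the abdomen wound of mouse 4, against 2.39 to 3.37 FPKM, and the macrophage gene sum of that library was 2466 FPKM, against 1380 to 1879 FPKM in the other 3 wounds, a relation that was not tested. Tfpi was at 9.59 FPKM in the cheek wound of mouse 1, against 13.03 to 13.6 FPKM. Procr was at 8.56 FPKM in unwounded abdomen of mouse 1, against 10.95 to 11.2 FPKM.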

How the results depend on the processing

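Results for single genes kept their direction and side of the threshold in 898 refits, lost the call in 85, gained it in 7 and changed sign in 8. Most of these results had not passed in the first place and had no call to lose, so the 898 do not measure how steady the calls were. The sign changes were F13a1 in back, at -0.0342 with median-ratio scaling and -0.0969 with quantile normalization and -0.0829 to 0.278 with a mouse left out (-0.04, -0.00741 and -0.0829 without back mouse 1, 2 or 4), F3 in cheek, at -0.17 to 0.0684 with a mouse left out (0.0478 and 0.0684 without cheek mouse 2 or 3), and Thbd in abdomen, at -0.26 to 0.254 (-0.26 without abdomen mouse 1). With no mouse block (no replicate block), abdomen had 2 of the 10 genes called and back 3 partner genes, and the pairing changed no other count by over 1.5 times. With each site on its own 8 libraries, 0 of the 10 genes were called in abdomen and 2 in cheek, and 0 partner genes in abdomen and 0 in cheek, with fewer samples in each fit. In abdomen the partner genes called were 0 with a pseudocount of 0.1, and 2 with a pseudocount of 1, without trend and robust moderation and with quantile normalization. With each mouse left out in turn, the calls among the 10 genes ranged from 1 to 2 in abdomen, 2 to 6 in back and 3 to 6 in cheek, and those of partner genes from 0 to 1, 1 to 2 and 1 to 3 (0 in abdomen without abdomen mouse 1, 3 or 4, 2 in back without abdomen mouse 1, 1 in cheek without cheek mouse 3).

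Between sites, mice that share a number are different animals (mean r between -0.174 and 0.0179), so numbers do not pair them. With such a replicate block the counts fell to 0 for back against abdomen wounds, unwounded cheek against abdomen and unwounded cheek against back. With all 24 libraries and the mouse as a random effect they were 0 for back and for cheek against abdomen wounds. Unwounded cheek against abdomen had 0 calls without trend and robust moderation and 0 without the filter. Leaving out a mouse gave 0 to 3, 0 to 1, 2 to 4 and 0 to 1 calls for back against abdomen wounds, unwounded cheek against abdomen, cheek against abdomen wounds and unwounded cheek against back, and 0 to 1 in the F test. The cause of these changes was not tested.

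Over all genes, quantile normalization moved the share of higher calls from 79% to 64% in abdomen and from 69.6% to 53.4% in back, and median-ratio scaling moved it from 53.1% to 22.6% for unwounded cheek against back, from 52% to 34.4% for unwounded cheek against abdomen from 69.4% to 50.3% for cheek against abdomen wounds, from 39.9% to 54.9% for back against abdomen wounds, from 19.8% to 36.2% for unwounded back against abdomen (373 to 232 called) and from 76.1% to 36.5% for cheek against back wounds (351 to 189 called, 159 with quantile normalization). FPKM values carry no counts, so the depth behind values near 0 (F10, F7, Plg) is unknown.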
